A study of Mus musculus with 12 samples.

Results

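Genes of the triad and of excitation-contraction coupling were followed in C2C12GFP cells, a mouse myoblast line that carries green fluorescent protein and fuses into myotubes in culture. They were chosen by name, with earlier results of these data known. They hold the release channels *Ryr1* and *Ryr3*, the voltage sensor subunits *Cacna1s*, *Cacnb1*, and *Cacng1*, and the adaptor *Stac3*. The junctophilins *Jph1* and *Jph2* and the calsequestrins *Casq1* and *Casq2* bring them to 10 of the 55536 genes in the count table. The cells were differentiated either without a coating (control) or on Collagen I, on fibronectin, or on Geltrex™, a basement membrane matrix. RNA-seq was performed on 3 samples of each of the 4 groups, 12 samples in all, and all groups were the same untreated line. The sources used here do not name the day of differentiation of the sequenced cells or whether the 3 samples of a group were separate cultures, so p-values measure the spread between these samples, which may be technical.

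Muscle contracts when an action potential on the surface membrane is turned into a release of calcium from the sarcoplasmic reticulum. The signal runs inward along the T-tubules, and at the triad a T-tubule lies between the end sacs of the sarcoplasmic reticulum. There the dihydropyridine receptor, a calcium channel whose pore subunit is encoded by *Cacna1s*, senses the voltage and opens the ryanodine receptor of the reticulum through direct contact in skeletal muscle. Junctophilins hold both membranes together, STAC3 is needed for the receptor to reach the junction and to act on the release channel, and calsequestrins bind calcium inside the reticulum. These genes are switched on as myoblasts become myotubes.

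Counts on genes added up to 22520404 to 27351766 per sample. Levels are given as CPM, counts scaled by library size after TMM (trimmed mean of M values) correction for differences in composition between libraries. Log2 fold changes with their standard errors came from 1 quasi-likelihood fit of edgeR to all 12 samples and 14499 genes, and adjusted p-values are those of this fit after Benjamini-Hochberg adjustment over these genes. A gene was called higher or lower where the adjusted p was at most 0.05, and every one of the 10 genes passed the filter on low counts in this fit. The cells were checked against 10 myotube genes, of which 9 could be tested, among them *Acta1*, *Myh3*, and *Ttn*, whereas *Tnnc2* had at most 6 counts in any sample. Of 10 markers of fibroblasts, adipocytes, endothelial, immune, and neural cells, 5 had at most 10 counts in every sample.

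All 10 genes were lower on fibronectin than in the control, with no overlap between the groups, and 8 of 10 were lower on Geltrex™. Across all genes tested, 14.7% were called lower on fibronectin than in the control and 20.3% lay lower without overlap. The corresponding shares on Geltrex™ were 16.6% and 25.1%. The median log2 fold change of the 10 genes was -1.36 on fibronectin and -0.90 on Geltrex™, against -0.02 and -0.01 over all genes tested. None of the 10 genes was called between Collagen I and the control, a comparison in which 0.917% of all genes were called lower and 0.2% higher. The fibronectin and Geltrex™ comparisons share the control samples, so their values are set side by side without an overlap between them.

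**Figure D1:**
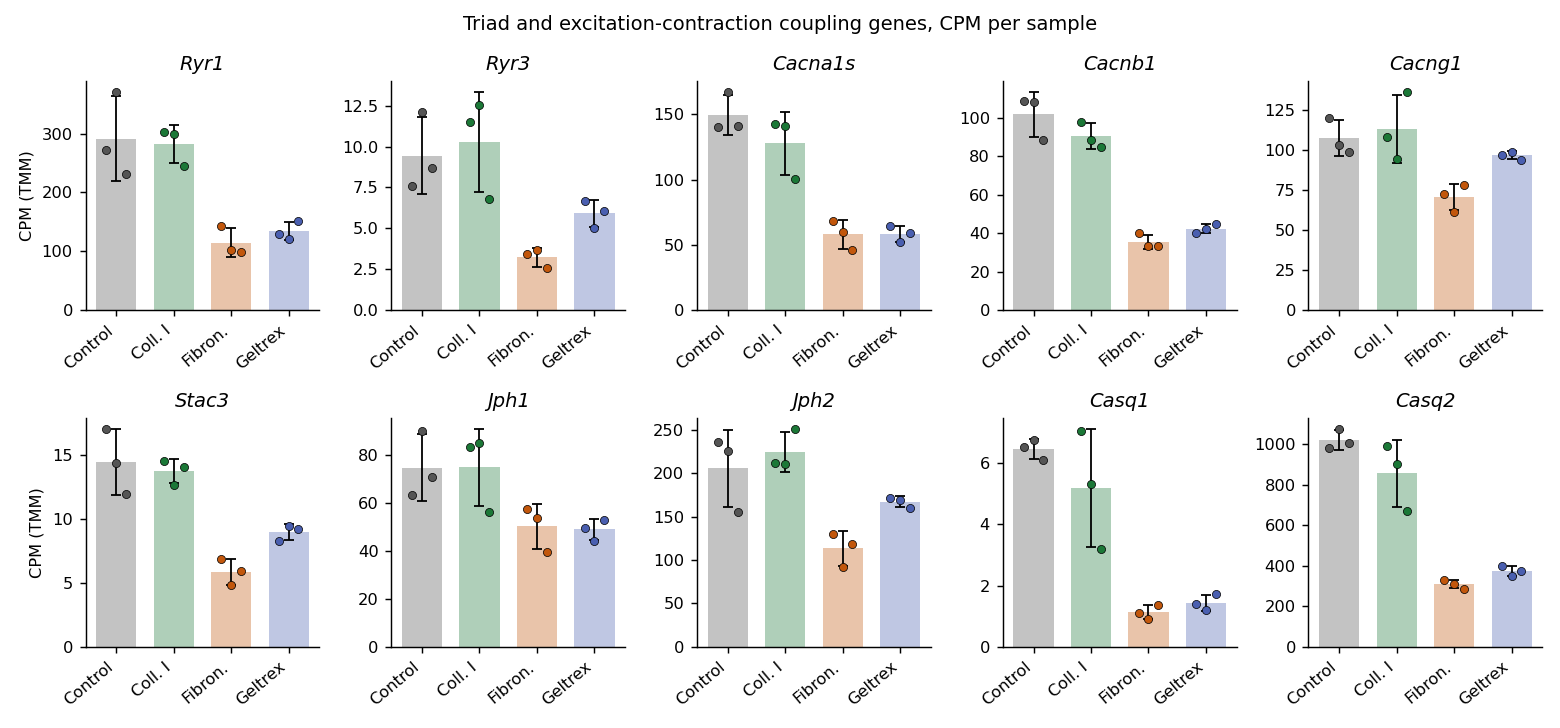
CPM of the 10 genes in each sample, with bars at the mean of 3 samples, error bars for the SD, and linear axes from 0. Fibronectin samples lie below all control samples in each panel, Geltrex™ samples do so for 8 genes but overlap the control for *Cacng1* and *Jph2*, and Collagen I samples overlap the control throughout.

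*Ryr1*, which encodes the ryanodine receptor that releases calcium in skeletal muscle (chromosome 7, 29003344 to 29125179, minus strand, GRCm38), was at 272, 371, and 232 CPM in control samples 1, 2, and 3. It was at 303, 299, and 246 CPM on Collagen I, 143, 102, and 97.9 CPM on fibronectin, and 129, 121, and 152 CPM on Geltrex™. The fibronectin and Geltrex™ samples were all below the lowest control sample, and the control samples themselves spread widely. *Ryr1* fell by 1.35 ± 0.17 (log2, SE) on fibronectin, a 2.55-fold difference with an adjusted p of 1.85e-05, and by 1.12 ± 0.17 on Geltrex™, 2.17-fold with an adjusted p of 7.95e-05. *Ryr3*, the second ryanodine receptor of skeletal muscle, which is best known from developing and from slow or diaphragm muscle, was far less abundant. Its samples were at 7.60, 12.1, and 8.66 CPM in the control, 11.5, 12.5, and 6.77 CPM on Collagen I, 3.45, 3.68, and 2.56 CPM on fibronectin, and 6.66, 5.03, and 6.09 CPM on Geltrex™. Fibronectin gave the lowest values and Geltrex™ lay between fibronectin and the control, without overlap on either side. *Ryr3* fell by 1.55 ± 0.24 on fibronectin (adjusted p = 0.000143). On Geltrex™ it fell by 0.68 ± 0.22 (adjusted p = 0.0293), and this call was lost without control sample 2 (adjusted p = 0.165), Geltrex™ sample 2 (adjusted p = 0.128), or Geltrex™ sample 3 (adjusted p = 0.0698). In the annotation, 4.83% of the exon length of *Ryr3* is shared with *Aven* on the opposite strand. Genes on the opposite strand also share exon length with *Cacna1s* (20.0%), *Casq1* (8.0%), *Ryr1* (4.2%), *Cacnb1* (1.8%), and *Jph1* (0.68%). Whether counting used the strand is not given in the sources used here.

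The pore subunit of the voltage sensor, *Cacna1s*, was at 140, 167, and 141 CPM in the control. It was at 143, 141, and 100.2 CPM on Collagen I, 68.2, 59.8, and 45.9 CPM on fibronectin, and 64.2, 51.8, and 59.2 CPM on Geltrex™. Both latter groups lay well under every control sample, and they overlapped each other. *Cacna1s* fell by 1.37 ± 0.15 on fibronectin and by 1.36 ± 0.15 on Geltrex™, with adjusted p-values of 5.40e-06 and 4.31e-06. *Cacnb1*, the intracellular beta subunit that carries the channel to the membrane, was at 109, 108, and 88.5 CPM in the control, 98.1, 88.4, and 84.9 CPM on Collagen I, 39.9, 33.1, and 33.5 CPM on fibronectin, and 40.3, 42.1, and 44.9 CPM on Geltrex™. Replicates of this gene were close together in each group. It fell by 1.52 ± 0.10 on fibronectin (adjusted p = 3.70e-08) and by 1.26 ± 0.10 on Geltrex™ (adjusted p = 1.55e-07).

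The gamma subunit *Cacng1*, a membrane protein specific to the skeletal muscle channel, did not move as far. It was at 120, 103, and 99.0 CPM in the control, 108, 94.6, and 137 CPM on Collagen I, 72.6, 61.6, and 78.1 CPM on fibronectin, and 97.3, 99.0, and 94.1 CPM on Geltrex™. The Geltrex™ samples reached into the range of the control, and the fibronectin samples did not. *Cacng1* fell by 0.60 ± 0.12 on fibronectin (adjusted p = 0.00150), and its log2 fold change on Geltrex™ was -0.15 with a 95% interval of -0.41 to 0.10 (adjusted p = 0.366). The interval for *Cacng1* on Geltrex™ does not reach the estimates of -1.36 for *Cacna1s* and -1.26 for *Cacnb1*. *Cacna2d1*, which encodes the alpha2-delta subunit of the same channel and is not among the 10 genes, was named after its values were seen. Its log2 fold change on Geltrex™ was -0.25 (adjusted p = 0.0946), which lies inside the interval for *Cacng1* and was not called.

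The promoter of *Cacna1s* is shown as that of the sensor itself, with the binding motifs of muscle transcription factors. RefSeq (GRCm38.p6) entries of 300 bases around a start site were found for 6 of the 10 genes: *Ryr1*, *Cacna1s*, *Cacnb1*, *Jph2*, *Casq1*, and *Casq2*. *Ryr3*, *Cacng1*, *Stac3*, and *Jph1* had no entry. Capitals mark the E-box CANNTG, to which MYOD1 and MYOG bind, and, inside it, the form CAGCTG. Both are palindromes and so read the same on both strands.
*Cacna1s* promoter, chr1:136052561-136052860, plus strand: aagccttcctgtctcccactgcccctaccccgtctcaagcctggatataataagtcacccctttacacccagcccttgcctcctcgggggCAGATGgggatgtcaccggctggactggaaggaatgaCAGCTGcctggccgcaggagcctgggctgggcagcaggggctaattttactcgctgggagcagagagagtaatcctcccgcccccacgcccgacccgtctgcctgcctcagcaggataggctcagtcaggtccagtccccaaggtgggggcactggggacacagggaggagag
In this window of *Cacna1s*, CAGCTG starts 123 bases before the start site and another E-box starts 160 bases before it. CAGCTG was found in 16.3% of all 32851 mouse promoters of this table. An E-box of any form was in 72.3% of them. Of the 6 genes with an entry, 3 held the first form (*Cacna1s*, *Casq1*, and *Jph2*), and the *Ryr1* window held no E-box. A gene was counted if any of its entries held the form, whereas the shares are of entries. *Cacnb1* and *Jph2* had an additional entry each. A match describes these letters only.

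*Stac3* encodes the adaptor that links the voltage sensor to the release channel. It was at 17.02, 14.3, and 11.9 CPM in the control, 14.5, 12.6, and 14.0 CPM on Collagen I, 6.83, 4.81, and 5.94 CPM on fibronectin, and 8.29, 9.39, and 9.20 CPM on Geltrex™. The 3 levels of control, Geltrex™, and fibronectin were in that order without overlap. *Stac3* fell by 1.29 ± 0.15 on fibronectin (adjusted p = 8.72e-06) and by 0.69 ± 0.14 on Geltrex™ (adjusted p = 0.00166).

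The junctophilins, together with *Cacng1*, had the smallest changes. *Jph1*, the main junctophilin of skeletal muscle, was at 63.3, 90.0, and 70.5 CPM in the control, 82.9, 85.0, and 56.2 CPM on Collagen I, 57.3, 53.5, and 39.5 CPM on fibronectin, and 49.5, 44.2, and 52.8 CPM on Geltrex™. The gap between the lowest control sample and the highest fibronectin sample was narrow. *Jph1* fell by 0.57 ± 0.17 on fibronectin (adjusted p = 0.0151) and by 0.61 ± 0.17 on Geltrex™ (adjusted p = 0.00984). The fibronectin call was lost without control sample 2 (adjusted p = 0.0854) or fibronectin sample 3 (adjusted p = 0.0652), and the Geltrex™ call without control sample 2 (adjusted p = 0.0637) or Geltrex™ sample 2 (adjusted p = 0.0563). *Jph2*, which is also the junctophilin of heart muscle, was at 236, 225, and 155 CPM in the control, 211, 211, and 251 CPM on Collagen I, 130, 91.4, and 118 CPM on fibronectin, and 172, 170, and 160 CPM on Geltrex™. Control sample 3 was well below the other control samples and below all Geltrex™ samples. *Jph2* fell by 0.86 ± 0.14 on fibronectin (adjusted p = 0.000354). Its log2 fold change on Geltrex™ was -0.30 ± 0.14 with an adjusted p of 0.127, which became 0.0116 without control sample 3 and 0.02003 with no filter on low counts.

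The calsequestrins had the largest changes. *Casq2*, known as the calsequestrin of heart and slow muscle, was the most abundant of the 10 genes, at 981, 1078, and 1009 CPM in the control and 994, 904, and 672 CPM on Collagen I. It was at 328, 311, and 287 CPM on fibronectin and 398, 347, and 377 CPM on Geltrex™. Every fibronectin sample was below every Geltrex™ sample, and both groups were far below the control. *Casq2* fell by 1.73 ± 0.12 on fibronectin, 3.31-fold with an adjusted p of 4.36e-08, and by 1.45 ± 0.12 on Geltrex™, 2.74-fold with an adjusted p of 1.90e-07. *Casq1*, the calsequestrin that predominates in adult fast muscle, was at 6.52, 6.75, and 6.11 CPM in the control, 7.06, 5.31, and 3.19 CPM on Collagen I, 1.11, 0.921, and 1.36 CPM on fibronectin, and 1.41, 1.19, and 1.71 CPM on Geltrex™. It had the largest fold change of the 10 genes in both comparisons, on a base of 22 to 38 counts per sample on these coatings against 144 to 184 in the control. *Casq1* fell by 2.51 ± 0.26 on fibronectin, 5.68-fold with an adjusted p of 3.16e-06, and by 2.17 ± 0.25 on Geltrex™, 4.495-fold with an adjusted p of 8.22e-06.

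The promoters of both calsequestrins are shown as those of the genes with the largest changes, with E-boxes in capitals and, in *Casq2*, also a match to the MEF2 motif, the AT-rich site of the MEF2 factors of muscle.
*Casq1* promoter, chr1:172219846-172220145, minus strand: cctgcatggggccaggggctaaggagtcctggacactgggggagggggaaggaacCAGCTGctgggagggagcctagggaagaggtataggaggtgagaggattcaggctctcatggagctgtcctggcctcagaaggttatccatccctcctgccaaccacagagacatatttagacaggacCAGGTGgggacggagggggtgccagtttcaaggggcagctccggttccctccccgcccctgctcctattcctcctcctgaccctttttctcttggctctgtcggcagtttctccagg
*Casq2* promoter, chr3:102086165-102086464, plus strand: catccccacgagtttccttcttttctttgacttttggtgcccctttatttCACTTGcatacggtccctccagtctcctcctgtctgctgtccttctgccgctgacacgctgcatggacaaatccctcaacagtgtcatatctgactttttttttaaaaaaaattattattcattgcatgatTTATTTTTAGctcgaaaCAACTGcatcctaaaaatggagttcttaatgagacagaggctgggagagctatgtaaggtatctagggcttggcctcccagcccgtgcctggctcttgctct
The *Casq1* window held CAGCTG, starting 195 bases before the start site, and the *Casq2* window held the MEF2 match, starting 69 bases before it. The MEF2 motif was in 3.19% of all promoters and in 1 of the 6 genes with an entry. *Casq2* had no CAGCTG, although other E-boxes start 200 and 52 bases before its start site.

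**Figure D2:**
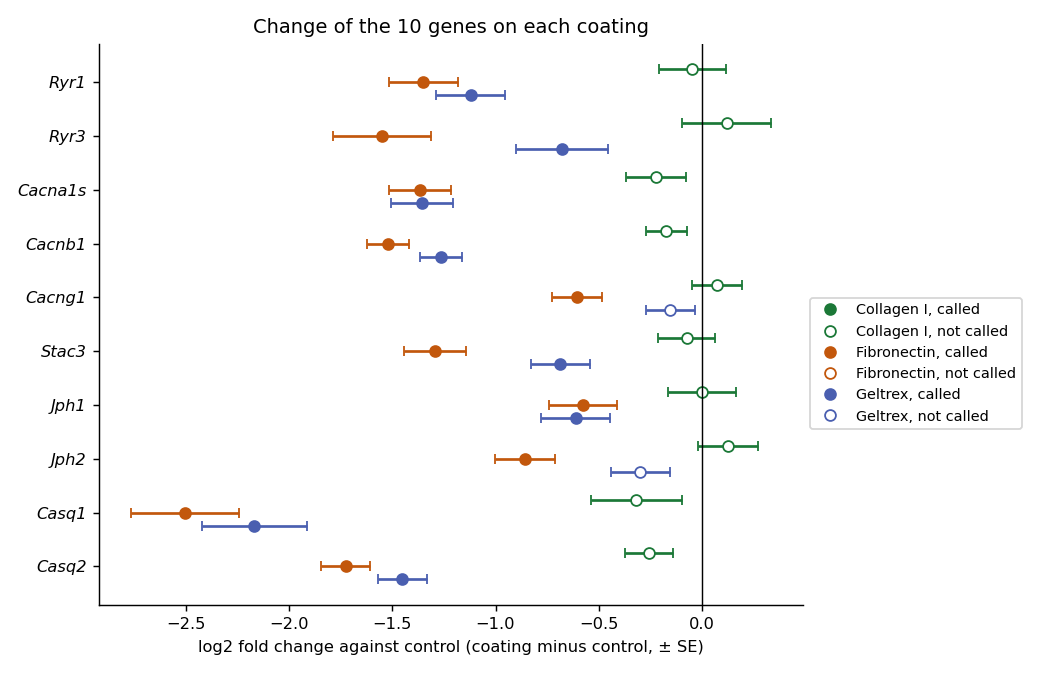
Log2 fold change of each gene on Collagen I, fibronectin, and Geltrex™ against the control, with the SE. Filled circles were called and open circles were not. Fibronectin and Geltrex™ values are all below 0, from -2.51 (*Casq1* on fibronectin) to -0.15 (*Cacng1* on Geltrex™), and the Collagen I values lie between -0.32 and 0.13.

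Between Collagen I and the control, edgeR called 0 of the 10 genes, as did DESeq2, and 1 had an unadjusted p under 0.05. That gene was *Casq2*, with a log2 fold change of -0.26, a 95% interval of -0.50 to -0.01, and an adjusted p of 0.315. Without Collagen I sample 3, its log2 fold change was -0.12 and that of *Casq1* went from -0.32 to -0.08. The interval of *Ryr1* was -0.39 to 0.30 and that of *Cacna1s* was -0.53 to 0.09, so these data leave room for a modest change in either direction for *Ryr1*. Collagen I sample 3 was the lowest of its group for 7 of the 10 genes and control sample 3 for 6. The widest interval was that of *Casq1*, from -0.78 to 0.15.

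The study asked how Collagen I compares with the other coatings. All 10 genes were called higher on Collagen I than on fibronectin, where 22.1% of all genes were, with a median log2 fold change of 1.26. *Casq1* differed most, by 2.19 ± 0.26, followed by *Ryr3* with 1.67 ± 0.24 and *Casq2* with 1.47 ± 0.12. *Jph1* differed least, by 0.58 ± 0.17 (adjusted p = 0.0105), and its Collagen I and fibronectin samples overlapped. Against Geltrex™, 9 of the 10 genes were called higher on Collagen I, with a background of 18.2% and a median of 0.94. The one not called was *Cacng1*, at 0.22 with an interval of -0.03 to 0.48, and it was called without Collagen I sample 2 (adjusted p = 0.0395). Of the 9 calls, that of *Jph2* (0.42 ± 0.14, adjusted p = 0.0297) was lost without Collagen I sample 3 (adjusted p = 0.109) or without any 1 of the 3 Geltrex™ samples (adjusted p 0.0664, 0.0718, and 0.0990). That of *Ryr3* (0.80 ± 0.22, adjusted p = 0.0111) was lost without Collagen I sample 2 (adjusted p = 0.0561) or Geltrex™ sample 2 (adjusted p = 0.0589).

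Fibronectin and Geltrex™ were also compared directly. Lower on fibronectin were 4 genes, namely *Ryr3* by -0.87 ± 0.24 (adjusted p = 0.0201), *Stac3* by -0.61 ± 0.15 (adjusted p = 0.0106), *Jph2* by -0.56 ± 0.14 (adjusted p = 0.0126), and *Cacng1* by -0.45 ± 0.12 (adjusted p = 0.0161), and none was higher. In all, 9.06% of the genes tested were called lower in this comparison. *Cacna1s* (-0.01, interval -0.33 to 0.31) and *Jph1* (0.04, interval -0.32 to 0.39) had the smallest differences. The calls depended on single samples, since 1 gene was called without fibronectin sample 2 (*Ryr3*) and 2 without Geltrex™ sample 1 (*Stac3* and *Jph2*). With only these groups in the fit, *Cacnb1* and *Casq2* were called lower on fibronectin as well (adjusted p = 0.0496 and 0.0167).

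Levels of different genes were compared per kilobase of annotated exon. The whole length was used, including stretches shared with genes on the opposite strand, such as 20.0% of *Cacna1s*. In the control, *Casq2* stood at 374 ± 18.3 CPM per kb (SD, n = 3), above *Cacng1* at 86.1 ± 8.99 and *Jph2* at 48.3 ± 10.3. *Cacna1s* (22.8 ± 2.35) and *Cacnb1* (22.5 ± 2.57), subunits of 1 channel, did not differ beyond their spread, and neither did *Jph1* (14.9 ± 2.76) and *Ryr1* (13.3 ± 3.28). *Stac3* (5.67 ± 1.01), *Casq1* (3.31 ± 0.165), and *Ryr3* (0.498 ± 0.124) followed as the lowest levels. On Collagen I, *Cacnb1* (19.98 ± 1.51), *Cacna1s* (19.5 ± 3.68), *Jph1* (14.9 ± 3.22), and *Ryr1* (12.9 ± 1.47) followed each other with overlapping ranges of 1 SD. The order from *Casq2* through *Cacng1* to *Jph2* at the top and from *Ryr1* through *Stac3* and *Casq1* to *Ryr3* at the bottom was found in each of the 4 groups. In the middle, *Jph1* had rank 6 in the control and on Collagen I and rank 4 on fibronectin (10.02 ± 1.88) and Geltrex™ (9.77 ± 0.87), where it did not differ beyond the spread from *Cacna1s* (8.85 ± 1.72 and 8.92 ± 0.95) or *Cacnb1* (7.83 ± 0.84 and 9.37 ± 0.51).

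Ratios within a pair of related genes were taken per sample as differences of log2 CPM with a prior count of 2. The log2 ratio of *Casq1* to *Casq2* was -7.29 ± 0.07 (SD, n = 3) in the control, -7.40 ± 0.28 on Collagen I, -8.01 ± 0.33 on fibronectin, and -7.95 ± 0.21 on Geltrex™. It lay lower in all 3 samples of fibronectin and of Geltrex™ than in any control sample, by -0.72 and -0.67. The difference on fibronectin was -0.72 with RLE normalization and -0.78 with a prior count of 0.5. For *Ryr1* to *Ryr3*, the ratio was 4.93 ± 0.21 in the control and 4.48 ± 0.20 on Geltrex™, also without overlap. These 3 differences had an exact two-sided permutation p of 0.1, the smallest that 3 against 3 samples allow, and an adjusted p of 0.3 over 9 comparisons of this kind. The ratio of *Jph1* to *Jph2* overlapped the control on every coating, with differences between -0.32 and 0.27.

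The other genes of the triad were taken from a list of 24, of which 22 passed the filter and *Clcn1* and *Sypl2* had at most 9 counts in any sample. On fibronectin 14 of the 22 were lower than in the control and 1 was higher, where 14.7% of all genes were lower and 17.1% higher. On Geltrex™ 12 were lower and 2 higher, and 16.6% of all genes were lower and 16.4% higher there. The medians were -0.51 and -0.53. Between Collagen I and the control, the main edgeR fit called 0 of 22, with 2 at an unadjusted p under 0.05, while DESeq2 called 1 higher. That gene was *Trdn*, triadin, which ties calsequestrin to the release channel and was named after its values were seen (0.42 on the log2 scale, adjusted p = 0.0156 in DESeq2). Without a filter on low counts, edgeR also called *Trdn* higher (adjusted p = 0.00445), as well as *Jsrp1* (adjusted p = 0.0470).

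In the junctional reticulum, 7 of 11 tested genes were lower on each of these coatings, against 14.7% and 16.6% of all genes. *Hrc*, the histidine-rich calcium-binding protein of the reticulum lumen, had the lowest value of this role. It was at 196, 194, and 191 CPM in the control, 197, 187, and 172 CPM on Collagen I, 49.2, 43.0, and 37.5 CPM on fibronectin, and 57.7, 48.9, and 62.9 CPM on Geltrex™. The control samples of *Hrc* were nearly equal and the fibronectin and Geltrex™ samples were all far below them. *Hrc* fell by 2.16 ± 0.11 on fibronectin (adjusted p = 2.28e-09) and by 1.78 ± 0.11 on Geltrex™ (adjusted p = 9.38e-09). *Asph*, a locus that encodes junctin but also the aspartate beta-hydroxylase and so is not specific to the triad, was higher on both, by 0.41 ± 0.11 on each (adjusted p = 0.00944 and 0.00857). *Homer1*, a scaffold that is likewise found in many cells, was the other gene higher on Geltrex™ (0.37 ± 0.13, adjusted p = 0.0338), and it was named after its values were seen.

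Among T-tubule genes, 4 of 7 were lower on fibronectin and 3 of 7 on Geltrex™, against 14.7% and 16.6% of all genes. *Cav3*, the muscle caveolin of forming T-tubules, was lowest, with a fall of 1.92 ± 0.22 on fibronectin and of 1.80 ± 0.22 on Geltrex™ (adjusted p = 7.58e-06 and 1.10e-05). *Bin1*, which bends the membrane into tubules, fell by 0.91 ± 0.11 on fibronectin (adjusted p = 1.79e-05) and by 0.48 ± 0.11 on Geltrex™ (adjusted p = 0.00344). *Speg*, a kinase of the triad, fell by 0.47 ± 0.11 on fibronectin (adjusted p = 0.00408), and its value on Geltrex™ was -0.09 (adjusted p = 0.545). The muscle sodium channel *Scn4a*, which carries the action potential, fell by 1.95 ± 0.23 on fibronectin and by 1.85 ± 0.23 on Geltrex™ (adjusted p = 1.36e-05 and 1.67e-05). Of the store-operated entry genes, *Orai1*, the channel, was called lower on fibronectin and Geltrex™, at -0.56 ± 0.16 and -0.58 ± 0.16 (adjusted p = 0.0156 and 0.0118). *Stim1*, its calcium sensor, was at -0.36 ± 0.09 and -0.18 ± 0.09 (adjusted p = 0.00544 and 0.130) and so was called on fibronectin only.

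**Figure D3:**
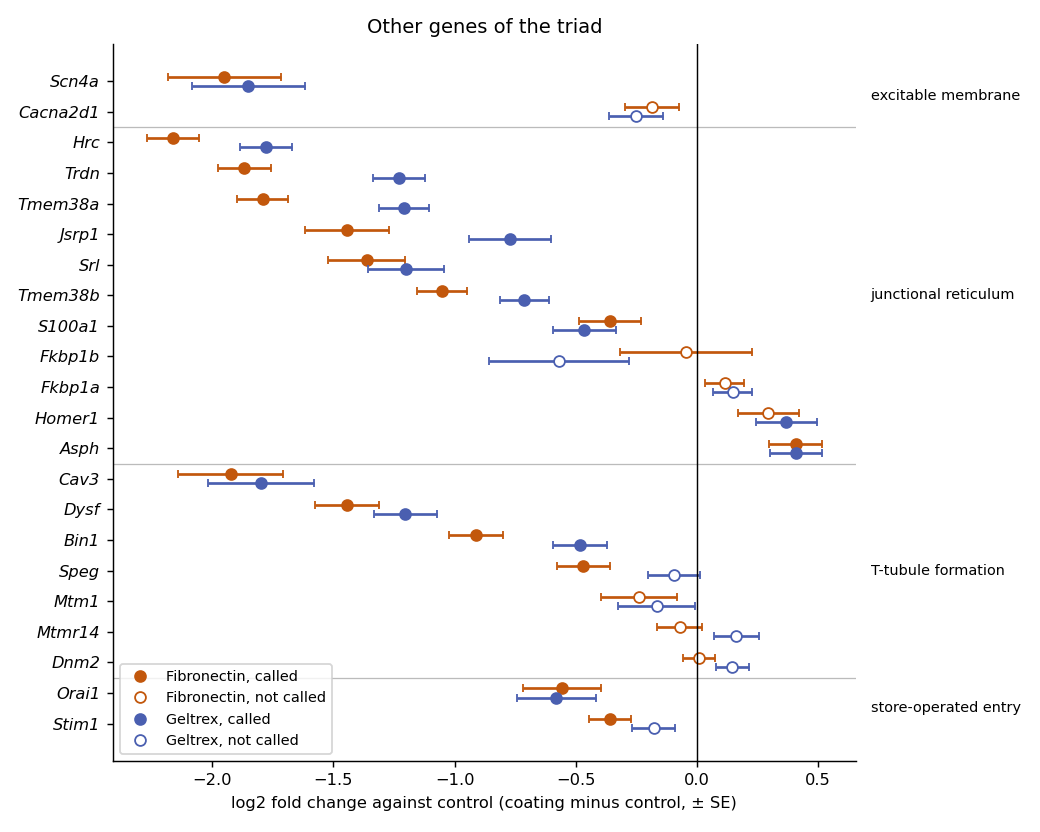
Log2 fold change against the control, with the SE, of the 22 tested genes of the wider triad list on fibronectin and Geltrex™, grouped by role. Filled circles were called and open circles were not. Values run from -2.16 (*Hrc* on fibronectin) to 0.41 (*Asph*), with genes of broad expression such as *Asph* and *Homer1* on the right.

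Among 12 paralogs, which stand in for the 10 genes in other tissues, 6 were tested. *Ryr2*, *Cacna1c*, *Cacnb4*, *Stac*, *Jph3*, and *Jph4*, which belong to heart or brain, never exceeded 7 counts in a sample and did not pass the filter. *Stac2*, a relative of *Stac3*, was at 73.6 to 82.5 CPM in the control and was called higher on fibronectin (0.23 ± 0.07, adjusted p = 0.0288) and Geltrex™ (0.25 ± 0.07, adjusted p = 0.0190), whereas *Stac3* fell on both. *Cacnb3*, a beta subunit of many tissues, was at 68.2 to 79.7 CPM in the control and fell by 0.45 ± 0.10 on fibronectin (adjusted p = 0.00264). Its value on Geltrex™ was -0.26 (adjusted p = 0.0555). *Cacnb2*, the beta subunit of heart, was the only gene of any list used here that the main edgeR fit called between Collagen I and the control. It was at 5.53, 7.41, and 6.07 CPM in the control, 3.25, 3.38, and 3.06 CPM on Collagen I, 6.76, 7.24, and 7.88 CPM on fibronectin, and 3.80, 4.57, and 5.005 CPM on Geltrex™. All Collagen I and Geltrex™ samples of *Cacnb2* were below the control samples. It fell by 0.97 ± 0.16 on Collagen I (adjusted p = 0.00586) and by 0.51 ± 0.15 on Geltrex™ (adjusted p = 0.0165), with 0.20 ± 0.14 on fibronectin (adjusted p = 0.311). *Cacng6*, a gamma subunit, had 13 to 32 counts in the control and 2 to 5 on fibronectin, where it fell by 2.46 ± 0.48 (adjusted p = 0.00122). On Geltrex™, *Cacng6* had 12 to 26 counts and its samples overlapped the control. *Cacna1d* and *Cacng7* reached at most 22 counts in a sample and were not called on any coating against the control. The log2 fold change of *Cacna1d* on Geltrex™ was 1.14, the highest of the tested paralogs, on 11 to 22 counts per sample.

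The myotube reference genes moved in the same direction as the 10 genes. All 9 tested genes of a myotube reference list of contractile and cytoskeletal genes were lower on fibronectin and on Geltrex™, with medians of -1.93 and -1.53. Of all genes tested, 14.7% were called lower on fibronectin and 16.6% on Geltrex™, and 17.1% and 16.4% were called higher. The summed level of the reference list, with *Tnnc2*, was 9168 to 10131 CPM in the control and 9593 to 10479 CPM on Collagen I. It was 3126 to 3534 CPM on fibronectin and 4546 to 4964 CPM on Geltrex™. Of 9 myogenic factors and fusion genes, 8 were tested, and 5 were lower on fibronectin and 6 on Geltrex™. The summed level of 6 genes of cycling myoblasts went the other way, at 162 to 210 CPM in the control, 141 to 148 CPM on Collagen I, 532 to 710 CPM on fibronectin, and 558 to 612 CPM on Geltrex™. Of these 6 genes, 5 were called higher on fibronectin and on Geltrex™, and *Pax7*, with no more than 19 counts in a sample, was not. The 10 markers of other cell types summed to 70.2 to 74.8 CPM in the control, 52.3 to 56.0 CPM on Collagen I, 86.1 to 102 CPM on fibronectin, and 78.3 to 80.8 CPM on Geltrex™, and 1 of the 5 tested, *Tubb3*, was called higher on fibronectin (0.90 on the log2 scale). The part of these marker genes in the differences of the 10 genes was not tested. In bulk RNA, fewer myotubes and less RNA of these genes per myotube cannot be told apart.

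**Figure D4:**
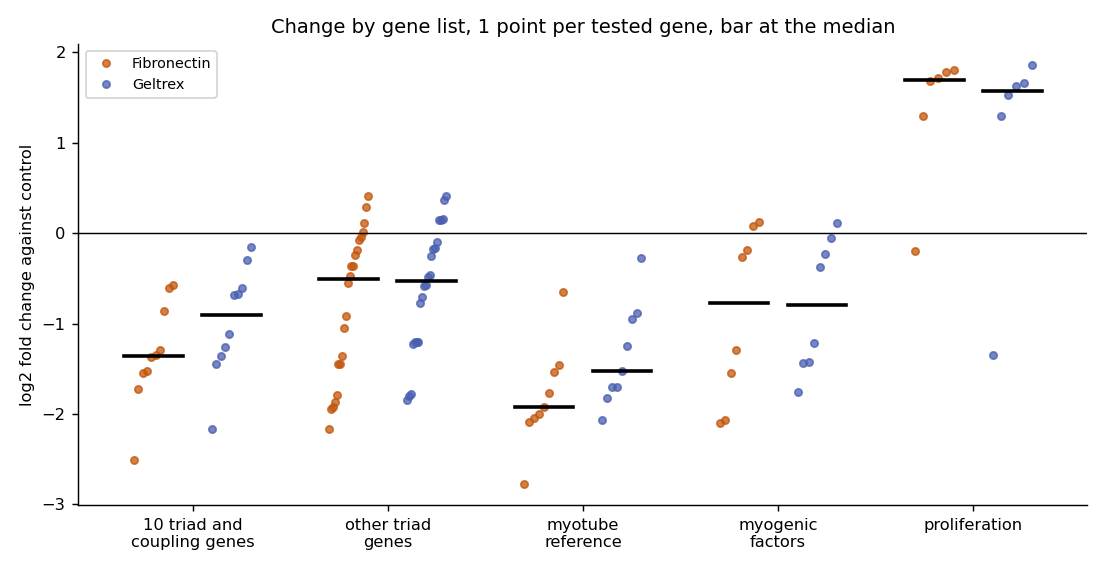
Log2 fold change on fibronectin and Geltrex™ against the control by gene list, with 1 point per tested gene and a bar at the median. The 10 triad and coupling genes (medians -1.36 and -0.90) lie between the other triad genes (-0.51 and -0.53) and the 9 tested myotube reference genes (-1.93 and -1.53), and the proliferation genes lie above 0 except *Pax7*.

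The level of each gene was also taken relative to the mean log2 CPM of the 10 myotube reference genes in the same sample. This mean was lower than in the control by -1.74 on fibronectin and -1.35 on Geltrex™, and subtracting it moves every gene of a sample up by the same amount, so a gene that fell less than the reference lies above its control level. Of the 14499 genes tested, 98.8% were above their control level on fibronectin and 97.1% on Geltrex™ on this scale, with median differences of 1.72 and 1.34. Among the 10 genes, 9 were above it on fibronectin and 7 on Geltrex™, with median differences of 0.38 and 0.46. Without overlap with the control, 93.5% of the genes tested lay above it and 0.359% below it on fibronectin, and 90.4% lay above it and 0.938% below it on Geltrex™. The values of the 10 genes therefore rank them against the reference and against each other, and a position above the control is not particular to them. On fibronectin, *Jph1* was above its control level by 1.16, *Cacng1* by 1.13, *Jph2* by 0.89, *Ryr1* by 0.40, and *Cacna1s* by 0.36, each without overlap with the control. On Geltrex™, *Cacng1* was above its control level by 1.20, *Jph2* by 1.07, *Jph1* by 0.75, *Ryr3* by 0.70, and *Stac3* by 0.68, again without overlap. *Casq1* lay below the control without overlap on both, at -0.71 and -0.77, and so fell further than the mean of the reference. The samples of the other genes overlapped the control, except those of *Casq2* on Geltrex™. This gene was at -0.11 there, and it changed sign to 0.02 with a prior count of 0.5. None of the 20 tests could go below an exact two-sided permutation p of 0.1, which gave an adjusted p of 0.154 for each separated gene. With *Tnnc2* left out of the reference, the medians were 0.46 and 0.47, and with a prior count of 0.5 they were 0.48 and 0.59, with 9 genes above the control on each coating.

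**Figure D5:**
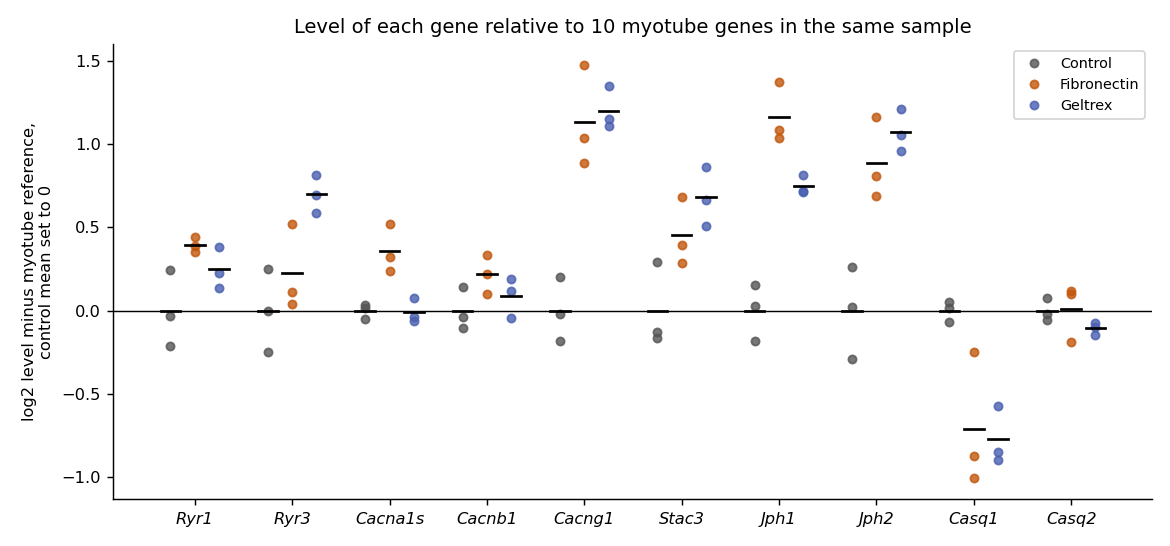
Log2 CPM of each gene minus the mean log2 CPM of the 10 myotube reference genes in the same sample, with the control mean of each gene set to 0, 1 point per sample, and a bar at the group mean. *Cacng1*, *Jph1*, and *Jph2* lie above the control on both coatings, where 98.8% and 97.1% of all genes tested also lie, and *Casq1* lies below it.

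The genes whose pattern over the 12 samples was most like that of *Ryr1* and *Cacna1s* were found by the root mean square difference of centred log2 CPM, over all genes that passed the filter. For *Ryr1* these were *Srl* (0.09), sarcalumenin of the reticulum lumen, *Dysf* (0.14), the membrane repair protein dysferlin, and *Nav2* (0.15), against 0.65 for a flat profile. *Cacnb1*, at 0.15, had rank 4. For *Cacna1s* they were *Mef2c* (0.10), a muscle transcription factor, *Nav2* (0.11), and *Trim55* (0.12), a ubiquitin ligase of the sarcomere, against 0.66 for a flat profile. Among the other 9 genes, *Casq2* was nearest to *Cacna1s*, at 0.16 and rank 16. By rank among all genes tested, the nearest of the other 9 genes was farthest off for *Jph1* and *Cacng1*. For *Cacng1* the nearest was *Jph2* at rank 701 (0.18 against 0.30 for a flat profile), and for *Jph1* it was *Cacna1s* at rank 2644 (0.35 against 0.36). By distance alone, *Casq1* was farthest from any other of the 10, at 0.38 from *Casq2* (rank 52, against 1.10 for a flat profile). *Ryr3* was at 0.31 from *Ryr1* (rank 17, against 0.70). The log2 CPM were centred and not scaled, so a distance reflects the size of a change as well as its shape. These distances describe 12 samples that fall into 4 groups.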

How the data were processed

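Per the study's methods, the authors used Trimmomatic for trimming, HISAT2 for alignment, and featureCounts for counting. They deposited whole-number read counts by gene for each sample, neither normalized nor pooled. The genome build, annotation release, and strand setting are not given in the sources used here. All 55536 gene identifiers are in GENCODE M21 (GRCm38), which gave names, positions, and exon lengths.

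The main tool was edgeR 4.0.16 (R 4.3.3). After filterByExpr (minimum count 10, minimum total 15) and TMM scaling, 1 quasi-likelihood model without a replicate block (8 residual degrees of freedom) gave 6 comparisons, adjusted by the Benjamini-Hochberg method. The SE was the log2 fold change divided by the root of the F statistic. Log2 CPM for ratios and distances used a prior count of 2, and 3 samples were compared with 3 by exact two-sided permutation tests. Alternatives were DESeq2 1.42.0, RLE normalization, no filter, at least 10 counts in every sample, only the groups compared, the replicate block, a prior count of 0.5, and each sample left out in turn. Leaving *Tnnc2* out of the reference was added after seeing the data.

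All 10 genes are named. From the other triad list, the highest and lowest called gene of each role on fibronectin and Geltrex™ is named, and from the paralogs each that passed the filter, besides those said to be named later. The genes and lists were chosen with earlier results of these data known. Same-numbered samples were not taken as pairs. Motifs were searched as exact letters in RefSeq promoters of GRCm38.p6. Before use, edgeR was tested on simulated data in which all genes and groups were given the same relative spread. The spread between samples was unequal across the groups here, a case which that test did not cover.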

Additional observations from a re-analysis of the deposited data

How the results depend on the processing

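Log2 fold changes of the 10 genes on fibronectin and Geltrex™ against the control kept their direction under every alternative run. The signs of the small differences between Collagen I and the control did not. That of *Jph1* was -0.0011 with DESeq2, -0.0011 with RLE normalization, -0.0039 where every sample had to reach 10 counts, and -0.0094 with the replicate block. Leaving out 1 sample at a time, the log2 fold change on Collagen I ran from -0.19 to 0.17 for *Ryr1*, from -0.049 to 0.35 for *Ryr3*, from -0.092 to 0.19 for *Cacng1*, from -0.19 to 0.062 for *Stac3*, from -0.10 to 0.17 for *Jph1*, and from -0.040 to 0.24 for *Jph2*. Between fibronectin and Geltrex™ it ran from -0.15 to 0.13 for *Cacna1s* and from -0.071 to 0.18 for *Jph1*. Leaving out 1 sample at a time, the number of the 10 genes called in that comparison, 4 in all samples, ran from 1 to 5, and it was 5 without a filter and 6 with only the groups compared. With 1 sample left out, that of the other triad genes, 7 in all samples, ran from 2 to 7, with 2 without fibronectin sample 2, 3 without Geltrex™ sample 1, and 4 without Geltrex™ sample 3. Between Collagen I and the control, DESeq2 called 1 other triad gene (*Trdn*) and the fit without a filter called 2 (*Trdn* and *Jsrp1*), against 0. Over all genes, that comparison called 162, with 485 in DESeq2, 581 without a filter, and 39 with only the groups compared, and the cause was not tested. Relative to the myotube reference, *Casq2* on Geltrex™ went from -0.11 to 0.018 with a prior count of 0.5, and *Cacna1s* went from -0.0073 to 0.115. With the replicate block, the number of the 10 genes called stayed at 10 on fibronectin and 8 on Geltrex™. Same-numbered samples of compared groups deviated together with correlations of -0.15 to 0.23, so the numbers were not read as pairs. The spread between samples of a group was unequal. For pairs of samples, chi-square per degree of freedom over the counts was 2.15 to 4.39 on Geltrex™. On Collagen I, it was 7.49 for samples 1 and 2, against 43.0 and 62.9 for the pairs that included sample 3. It was 21.2 to 30.2 in the control and 20.1 to 29.4 on fibronectin, and 1 fit shared the estimate of spread over all groups. *Casq1*, with 22 to 38 counts per sample on fibronectin and Geltrex™, had the widest errors against the control.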
